A study of Mus musculus with 4 samples.

Results

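Pi16 Dpp4 fibroblasts of the mouse synovium were selected by their own transcripts. A cell was kept if it held at least 500 UMIs (unique molecular identifiers, 1 per captured transcript molecule) with no more than 20% of them mitochondrial, at least 20 UMIs of Col1a1, Col1a2, Col3a1 and Dcn together, none of Ptprc or Cdh5, fewer than 5 of Mmp13 and Ibsp together, and at least 3 of Pi16 and Dpp4 together. The rule took 1381 of the 29563 cells in the series. Of these, 1326 came from the TNF- synovium and 55 from the TNF+ synovium. The fibroblasts that met every other condition but held fewer than 3 Pi16 and Dpp4 UMIs, 2189 in the TNF- and 344 in the TNF+ synovium, are called the other fibroblasts. Since Pi16 and Dpp4 chose the cells, these genes and what separates the chosen cells from the other fibroblasts are given as descriptions.

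Fibroblasts that express Pi16 and Dpp4 are found in the connective tissue of many organs, above all in the adventitia around vessels and in fascia. They are known as a progenitor-like population that can give rise to more specialised fibroblasts, and they lay down microfibrils and hyaluronan. Pi16 is a secreted peptidase inhibitor, and Dpp4 is a membrane dipeptidase that trims chemokines and peptide hormones. Complement factor C3, a plasma protein cleaved on the surface of microbes and cells, and factor B (Cfb), its partner in the alternative pathway, are also made by fibroblasts.

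TNF+ mice carried a human TNF transgene and developed inflammatory arthritis, and TNF- mice were their littermates without it. All were female, on a C57BL/6 background and 4 months old. Synovium was pooled from 5 to 10 mice per genotype and lung from 3 to 5, so each of the 4 groups was 1 library with no replicate, and no test of a difference between groups was possible. The human transgene is not part of the reference used for counting, so its own expression was not measured. Intervals below are at 95% and cover counting error only, not the differences between mice or between preparations.

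The chosen cells held a median of 18260 UMIs and 4173 genes in the TNF- synovium and 16222 UMIs and 3544 genes in the TNF+ synovium. Their summed counts were 24368922 and 977954 UMIs, so values from the TNF+ mice rest on far fewer molecules. Mitochondrial UMIs made up a median of 1.70% and 1.89%. The synovium libraries shared 5 barcodes, none of them among the chosen cells. Pi16 (chr17:29317680-29330593, plus strand, GRCm38) was at 1146 CPM (the gene's UMIs scaled to the summed UMIs of the cells) in TNF- and 963 CPM in TNF+ cells, and Dpp4 (chr2:62330073-62412231, minus strand) at 253 and 136 CPM. Both genes were seen together in 70.8% of the TNF- and 61.8% of the TNF+ cells, Pi16 alone in 269 and 12 cells, and Dpp4 alone in 118 and 9 cells.

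The rule did not use 4 further genes of the label. They were picked with earlier results of these data known, so their values describe the cells and do not test the label. Sema3c, a secreted guidance cue, was at 612 CPM in TNF- cells and 359 CPM in TNF+ cells, against 72.2 and 67.9 CPM in the other fibroblasts. Cd248, a membrane glycoprotein of perivascular cells, was at 454 and 229 CPM against 94.1 and 52.0 CPM. The matrix protein Efemp1 was at 377 and 213 CPM against 97.0 and 41.0 CPM, and Smpd3, a sphingomyelinase, at 230 and 118 CPM against 11.5 and 2.29 CPM. All 4 were higher in the chosen cells of both libraries. In the TNF- synovium the sum of the 4 genes grew with the Pi16 and Dpp4 count: it was 349 CPM in fibroblasts with 2 such UMIs, 531 CPM with 3, 638 CPM with 4 to 9 and 2335 CPM with 10 or more. In the TNF+ synovium the corresponding sums were 220, 509, 461 and 1325 CPM, without a rise between 3 and 4 to 9 UMIs. Cells with exactly 3 UMIs, just inside the rule, numbered 141 of 1326 and 18 of 55, so cells near the rule's edge made up more of the TNF+ set.

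**Figure D1:**
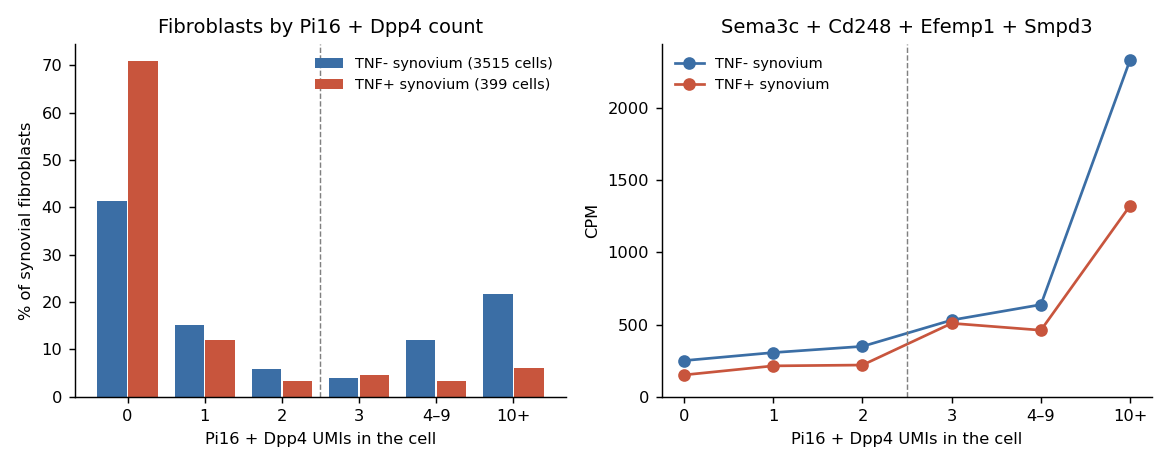
Left, the percentage of synovial fibroblasts (vertical axis) by the number of Pi16 and Dpp4 UMIs in the cell, for the TNF- and TNF+ libraries; right, the summed CPM of Sema3c, Cd248, Efemp1 and Smpd3 over the cells of each class. The dashed line is the minimum of 3 UMIs, and the sum reached 2335 CPM in TNF- cells and 1325 CPM in TNF+ cells with 10 or more UMIs.

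Free RNA was read from cells that should lack Pi16. Endothelial cells (median 5126 UMIs in the TNF- and 8564 in the TNF+ library) carried a Pi16 UMI in 13.2% and 2.80% of cells, and leukocytes (median 15645 and 13786 UMIs) in 19.1% and 6.66%. At least 3 Pi16 UMIs were found in 3.99% of leukocytes in the TNF- and 0.501% in the TNF+ library. At least 3 UMIs of Pi16 and Dpp4 together, as in the rule, were found in 4.46% and 0.467% of endothelial cells. For leukocytes these shares were 15.9% and 1.07%, and whether their Dpp4 was free RNA or their own was not tested. Background Pi16 was thus higher in the TNF- library, and its part in the number of chosen cells was not tested. Of the TNF- cells, 78 (5.88%) were among those with the highest doublet scores, and of the TNF+ cells 0.

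Pi16 Dpp4 cells made up 37.7% (95% interval 36.1 to 39.4) of the 3515 fibroblasts in the TNF- synovium and 13.8% (10.6 to 17.6) of the 399 in the TNF+ synovium. The difference was -23.9 percentage points (-27.4 to -19.9). Counted among all synovial cells, they were 1326 of 6638 and 55 of 3498. The TNF+ synovium also held 182 fibroblasts with Mmp13 and Ibsp, which the rule left out, and with these put back the TNF+ share was 9.47% (7.21 to 12.1). With at least 10 Pi16 and Dpp4 UMIs required, the shares were 21.7% and 6.02%. With cells reduced to 3000 randomly drawn UMIs before the rule was applied, they were 17.9% and 3.89%. Thinning also changed which cells met the other conditions, so these shares are of 3447 and 437 fibroblasts. The share was lower in the TNF+ library under each of these rules. A lower share of captured cells and a lower number of cells in the tissue cannot be told apart here.

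Besides the label genes, the cells stood apart from the other fibroblasts by genes of the adventitial progenitor state, a list also drawn up with earlier results known. Of 30 such genes, 25 were at least 2-fold higher in the Pi16 Dpp4 cells of the TNF- synovium and none was 2-fold lower, where 3.84% of the 12144 genes tested were 2-fold higher and 3.36% lower. In the TNF+ synovium 16 of 24 were 2-fold higher, against 3.81% of 2939 genes higher and 1.09% lower. Wnt2, a Wnt ligand, was at 31.0 CPM in the TNF- cells and 1.07 CPM in the other fibroblasts. Anxa3, an annexin, was at 458 CPM against 45.1 CPM, and Cd55, which restrains complement on the cell's own surface, at 466 CPM against 85.5 CPM. Has1, a hyaluronan synthase, was at 951 CPM against 162 CPM, and Ugdh, which makes a hyaluronan precursor, at 1156 CPM against 324 CPM. Fibrillin 1 (Fbn1), the backbone of microfibrils, was at 1842 CPM against 558 CPM, and its partner Mfap5 at 1282 CPM against 417 CPM. Each of these genes was also higher in the chosen cells of the TNF+ library, for example Cd55 at 238 CPM against 39.6 CPM and Has1 at 1698 CPM against 613 CPM.

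Ranked by the smaller of the ratios in the libraries, the genes highest in the Pi16 Dpp4 cells were Smpd3, Rorb, Opcml, Gm49257, Adgrd1, Cd55, Sema3c, Anxa3, Cadm3, Cd248, Pcolce2, Efemp1, Sdk1, Ifi27l2a and Ston2. The adhesion receptor Adgrd1 was 6.93-fold higher in the TNF- and 6.26-fold higher in the TNF+ cells, and the cell adhesion molecule Opcml 10.3-fold and 9.47-fold higher. For Gm49257, 1 cell held 80.5% of the UMIs in the TNF+ set. Of the genes tested in both libraries, 5 passed 2-fold in the other direction in both: Tnc, Apoe, Cp, Actn1 and Vcam1. Apoe, a lipid carrier, was at 95.3 CPM in the TNF- cells against 830 CPM in the other fibroblasts, and in the TNF+ library at 221 CPM against 501 CPM. Cxcl14 and Smoc2, which are high in another synovial fibroblast group, were at 364 and 1039 CPM in the TNF- cells against 1969 and 2297 CPM in the other fibroblasts. In the TNF+ library they were at 294 and 279 CPM against 494 and 414 CPM. At least 3 UMIs of Cxcl14 and Smoc2 together were held by 65.8% of the TNF- and 45.5% of the TNF+ chosen cells, and of Gdf10 and Myoc, which name a further fibroblast group, by 77.9% and 43.6%.

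**Figure D2:**
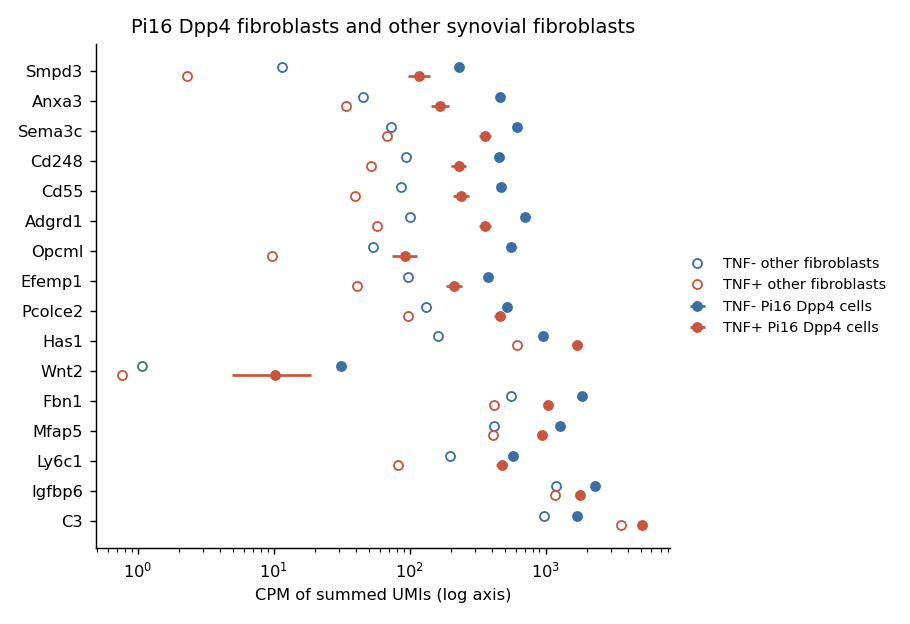
CPM of 16 genes (log axis) in the Pi16 Dpp4 cells (filled points, with 95% Poisson intervals) and in the other fibroblasts (open points) of the TNF- and TNF+ synovium. Filled points lie to the right of open points for each label gene in both libraries, for example 612 against 72.2 CPM for Sema3c in the TNF- synovium.

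Some of the chosen cells carried genes of tendon cells. Markers of tendon summed to 665 CPM in TNF- cells and 4188 CPM in TNF+ cells, and 133 of 1326 and 22 of 55 cells held at least 5 UMIs of them. In the 9 TNF+ cells with Dpp4 alone, tenomodulin (Tnmd), which is specific to tendon and ligament, was at 640 CPM and present in 8 cells. The tendon proteoglycan Fmod was at 10683 CPM in them. Cd248 was seen in 1 of these 9 cells and Smpd3 in none. In the 118 TNF- cells with Dpp4 alone, Tnmd was at 190 CPM and Fmod at 1608 CPM. Tnmd reached 2 or more UMIs in 51 of all TNF- and 14 of all TNF+ chosen cells. Values without these cells are given below for some of the genes that moved.

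Markers of other cell types were lower. Endothelial markers summed to 72.1 CPM in TNF- cells and 8.18 CPM in TNF+ cells, muscle markers to 71.3 and 17.4 CPM, and markers of mural cells to 40.4 and 45.0 CPM. Those of myeloid cells summed to 29.8 and 98.2 CPM, with C1qa and Csf1r at 0 in the TNF+ cells. T or NK cell markers were at 0.492 and 0 CPM and neutrophil markers at 3.90 and 1.02 CPM. Lining fibroblast markers, led by lubricin (Prg4), summed to 295 and 1657 CPM. The part of these cells or of their RNA in the differences below was not tested.

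Between TNF+ and TNF- Pi16 Dpp4 cells, 12250 genes had at least 50 UMIs over both libraries. Of these, 807 (6.59%) were at least 2-fold higher and 2404 (19.6%) at least 2-fold lower in the TNF+ cells, and the median log2 ratio of all genes was -0.22. In the other fibroblasts the same genes were 2-fold higher in 7.16% and lower in 19.6%. With scaling by the median of gene ratios in place of the total, the counts in the Pi16 Dpp4 cells were 1198 higher and 1733 lower. With the median of genes of like length subtracted they were 1150 and 1686. The thin TNF+ set shaped both ends: 1266 of the 2404 lower genes had 3 or fewer UMIs in the TNF+ cells, and in 265 of the 807 higher genes 1 cell held over 25% of the TNF+ UMIs. Of 4102 genes found in at least 20 TNF+ cells and with no cell over 25%, 297 were 2-fold higher and 199 lower. Below, log2 ratios are of CPM, TNF+ over TNF-.

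Complement genes came first in the question of the study. C3 (chr17:57203970-57228136, minus strand) was at 1696 CPM in TNF- cells and 5131 CPM in TNF+ cells, a log2 ratio of 1.60 (1.55 to 1.64). It was found in all 55 TNF+ cells, and the median cell held 12.9 C3 UMIs per 10,000 in the TNF- and 38.2 in the TNF+ set, with ranges from 0 to 94.6 and from 2.33 to 172 that overlapped widely. After thinning to 3000 UMIs, C3 was seen in 80.8% of 1321 TNF- and in 100% of 53 TNF+ cells, against 15.5% and 6.29% of endothelial cells. In the other fibroblasts C3 was at 973 and 3566 CPM. C3 was thus higher in the Pi16 Dpp4 cells than in the other fibroblasts of each library, and higher in the TNF+ cells of both kinds.

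The Pi16 Dpp4 cells, few in the TNF+ synovium, held less of its C3, and the part played by their number was not tested. They held 53.5% (53.2 to 53.9) of the 77183 C3 UMIs of the TNF- synovium while holding 27.0% of all UMIs. In the TNF+ synovium they held 11.5% (11.2 to 11.8) of 43687 C3 UMIs and 2.07% of all UMIs. With cells thinned to 3000 UMIs before the rule was applied, the C3 shares were 28.5% and 3.89%, a difference of -24.6 percentage points in place of -42.1. For Cfb the shares were 38.9% and 9.78%, for Cd55 74.2% and 20.6%, and for Sema3c 79.1% and 17.5%. Pi16 itself remained mostly in these cells, with 90.9% and 79.5% of its synovial UMIs.

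Cfb was at 72.6 CPM in TNF- cells and 534 CPM in TNF+ cells, a log2 ratio of 2.88 (2.73 to 3.02), and was seen in 38 of the 55 TNF+ cells. In the other fibroblasts it was at 77.4 and 327 CPM. C4b, a component of the classical pathway, was at 57.3 CPM in TNF- cells and 316 CPM in TNF+ cells (2.46), but at 86.9 and 78.3 CPM in the other fibroblasts (-0.15). The difference between these ratios was not tested. C2, the classical partner of C4b, had a ratio of 1.92, and the proteases C1ra and C1s1 had 0.93 and 0.80. Among the regulators, Serping1 stood at 0.78 and Cd55 at -0.97. Of 18 complement genes tested, 7 were 2-fold higher and 4 lower, beside 6.59% and 19.6% of all genes. Their median was 0.87 and the lowest ratio -3.75. In the other fibroblasts 5 of the 18 were 2-fold higher and 3 lower, with a median of 0.28, and the difference was not tested.

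Acute-phase genes, which the liver and stromal cells secrete in inflammation, had the highest median of the lists, 3.84, with 5 of 7 genes 2-fold higher and none lower. Haptoglobin (Hp), which binds free haemoglobin, had 0 UMIs in the TNF- and 1121 in the TNF+ cells (1146 CPM), at least 9311-fold higher against a floor of 3 UMIs over the TNF- set. These UMIs came from 14 cells, and 1 cell held 34.8% of them. Saa3, a serum amyloid protein, was at 0.205 CPM in TNF- cells and 866 CPM in TNF+ cells, where 7 cells carried it and 1 held 65.9%. TNF+ leukocytes also carried Hp, at 6.99 UMIs per cell against 20.4 in the Pi16 Dpp4 cells. Serpina3n (chr12:104406729-104414329, plus strand), a protease inhibitor, was spread more evenly: it was at 14.3 CPM in TNF- cells and 423 CPM in TNF+ cells, a log2 ratio of 4.89 (4.68 to 5.10), in 37 of 55 TNF+ cells. Lbp, which binds bacterial lipopolysaccharide, was at 201 and 550 CPM (1.45). In the other fibroblasts 4 of the 7 acute-phase genes were 2-fold higher and 1 lower, with a median of 3.87. The Serpina3n ratio there was 3.87 as well.

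Chemokines and cytokines were also mostly higher, with 16 of 26 genes 2-fold higher, 3 lower and a median of 1.5. Ccl2, which draws monocytes, was at 218 CPM in TNF- cells and 1760 CPM in TNF+ cells, a log2 ratio of 3.01 (2.93 to 3.09), and was present in 32 TNF+ cells. After thinning it was seen in 10.8% of TNF- and 47.2% of TNF+ cells, against 2.42% and 8.39% of endothelial cells. Its relative Ccl7 was at 114 and 940 CPM (3.05). Cxcl1, which draws neutrophils, was at 534 and 1270 CPM (1.25), Cxcl12, a retention signal for leukocytes, at 144 and 544 CPM (1.92), and Il6 at 124 and 218 CPM (0.82). Cxcl5, another neutrophil chemokine, was at 0.0821 and 361 CPM, a log2 ratio of 12.10 (10.24 to 15.15) that rests on 2 TNF- UMIs and 12 TNF+ cells. The interferon-induced chemokines went the other way: Cxcl10 was at 66.4 CPM in TNF- cells and 15.3 CPM in TNF+ cells (-2.11), and Cxcl9 at 12.3 and 1.02 CPM. The adhesion molecule Vcam1 was at 16.9 and 173 CPM (3.35). In the other fibroblasts 18 of the 26 genes were 2-fold higher and 2 lower, with a median of 1.83. Ratios there were 4.04 for Ccl2, 2.25 for Ccl7 and 2.87 for Vcam1, and the differences were not tested.

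The promoters of 3 of these genes are shown because each has 1 start site in RefSeq and a match to a motif of a factor known in the acute-phase or TNF response. The 250 bases before the start were read from RefSeq (GRCm38.p6) on the strand of the gene, and both strands were searched. Capitals mark TTGCNNAA, a C/EBP motif, in C3 and Saa3, and the kB consensus of NF-kB in Cxcl1. The C/EBP match was found in 9.56% of all 32851 promoters searched, the kB match in 3.90% and the AP-1 motif TGANTCA in 6.75%. Among the 15 genes with the highest ratios, 9 matched a promoter, of which 3 held the C/EBP motif and none the kB or AP-1 motif. Among the 15 ranked lowest, 2 of 11 matched promoters held the C/EBP motif, 1 the kB motif and 1 the AP-1 motif. That ranking set a count of 0 to the floor of 3 UMIs, so genes without TNF+ UMIs could rank above genes with 1. Of 16 genes high in many TNF+ cells that matched a promoter, 1 held the C/EBP, 2 the kB and 1 the AP-1 motif. The 2 kB matches, of Tmem176a and Tmem176b, were the same bases read on opposite strands. In these sets a gene counted if any of its start sites matched, whereas the shares over all promoters are per promoter. A match describes the letters and not the binding of a factor.
C3 chr17:57228137-57228386 minus strand: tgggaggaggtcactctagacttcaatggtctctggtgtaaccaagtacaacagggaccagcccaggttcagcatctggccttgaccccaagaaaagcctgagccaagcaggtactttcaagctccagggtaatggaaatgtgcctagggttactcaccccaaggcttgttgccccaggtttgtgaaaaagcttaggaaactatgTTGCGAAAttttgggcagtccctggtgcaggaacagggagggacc
Saa3 chr7:46715677-46715926 minus strand: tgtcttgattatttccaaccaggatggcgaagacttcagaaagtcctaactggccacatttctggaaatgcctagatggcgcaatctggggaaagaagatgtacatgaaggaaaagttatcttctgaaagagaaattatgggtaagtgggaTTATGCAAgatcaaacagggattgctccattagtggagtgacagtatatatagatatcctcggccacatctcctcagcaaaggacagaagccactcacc
Cxcl1 chr5:90890995-90891244 plus strand: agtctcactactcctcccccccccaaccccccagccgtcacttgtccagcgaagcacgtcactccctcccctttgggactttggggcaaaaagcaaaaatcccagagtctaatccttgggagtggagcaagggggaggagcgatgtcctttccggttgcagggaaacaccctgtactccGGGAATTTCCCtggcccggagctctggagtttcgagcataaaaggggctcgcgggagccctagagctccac

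Genes of activated fibroblasts had a median of 0.97, with 8 of 17 genes 2-fold higher and 2 lower. Cthrc1 (chr15:39076932-39087121, plus strand), a secreted protein of fibroblasts in scars and inflamed joints, was at 1.35 CPM in TNF- cells and 449 CPM in TNF+ cells, a log2 ratio of 8.37 (7.86 to 8.93). It was found in 14 of 1326 TNF- and 21 of 55 TNF+ cells, and its log2 ratio was 10.51 without the Tnmd cells. After thinning it was in 0.379% and 22.6% of cells, against 0.646% and 3.67% of endothelial cells. Timp1, an inhibitor of matrix metalloproteases, was at 16.3 and 478 CPM (4.87), and Runx1, a transcription factor, at 112 and 364 CPM (1.69). The contractile genes differed in direction: Acta2 was at 11.4 and 35.8 CPM with 1 cell holding 57.1% of its TNF+ UMIs, Tagln at 7.71 and 9.20 CPM, and the log2 ratio of Myl9 was -1.11. In the other fibroblasts Tagln had a ratio of 4.13, against 0.25 in the Pi16 Dpp4 cells, and Cthrc1 had 7.11 against 8.37. Of the 17 genes, 12 were 2-fold higher there and 1 lower, with a median of 1.79, and the difference was not tested.

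Matrix genes were divided. Of 28 proteoglycan and other matrix genes, 11 were 2-fold higher and 3 lower, with a median of 0.50. Biglycan (Bgn), a small proteoglycan, was at 348 CPM in TNF- cells and 2359 CPM in TNF+ cells (2.76), periostin (Postn) at 128 and 979 CPM (2.94) and Sparc at 1927 and 5821 CPM (1.59). The lubricant Prg4 was at 250 and 1268 CPM, and at 234 and 708 CPM without the cells that held Tnmd. Fmod, at 231 and 1843 CPM, was at 19.8 and 89.6 CPM without them. The basement membrane collagen Col15a1 was at 229 and 44.0 CPM (-2.38). Of the 19 elastic fibre genes, 6 were 2-fold higher, among them the crosslinking enzyme Lox at 60.9 and 423 CPM (2.80) and Mfap4 at 42.0 and 296 CPM (2.82). Elastin (Eln) itself was at 226 and 65.4 CPM (-1.79) and Fbn1 at 1842 and 1038 CPM (-0.83). Among proteases, Mmp2 was at 479 and 1169 CPM (1.29), whereas 1 cell held 75.7% of the TNF+ UMIs of Mmp3. In the other fibroblasts 12 of the 28 proteoglycan and other matrix genes were 2-fold higher and 5 lower, with a median of 0.48.

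**Figure D3:**
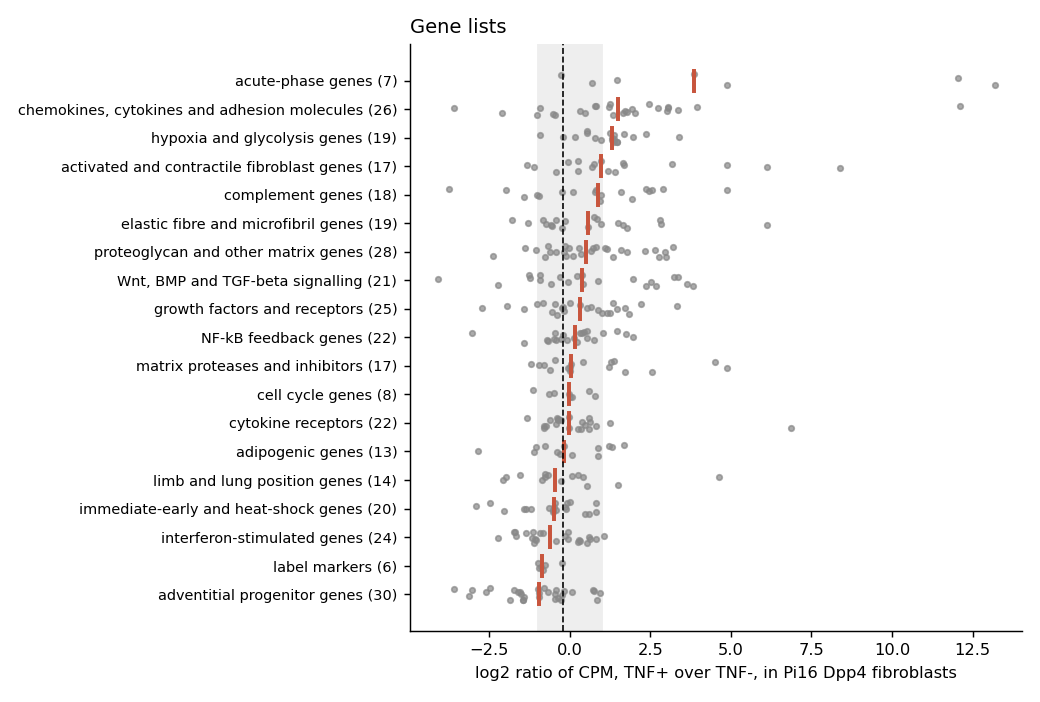
Log2 ratios of CPM, TNF+ over TNF-, in Pi16 Dpp4 fibroblasts for the genes of each list (number of genes tested in brackets), with the median of each list marked. The medians run from -0.97 for the adventitial progenitor genes to 3.84 for the acute-phase genes, beside a median of -0.22 over all 12250 genes.

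Of the 30 adventitial progenitor genes, 13 were 2-fold lower in the TNF+ cells and none higher, with a median of -0.97. Of all genes, 19.6% were lower and 6.59% higher. The list was drawn up with earlier results known. As 25 of its genes were 2-fold higher in the TNF- Pi16 Dpp4 cells than in the other fibroblasts, the counts are a description and not a test. Among the other fibroblasts 9 of the same genes were 2-fold lower and 5 higher, with a median of -0.49, and the difference between these medians was not tested. After subtraction of the median of genes of like length the median was -0.73, with 10 genes 2-fold lower and 1 higher. The transcription factor Ebf2 was at 562 CPM in TNF- cells and 68.5 CPM in TNF+ cells (-3.04), Anxa3 at 458 and 168 CPM (-1.45), Cd34 at 901 and 458 CPM (-0.98) and Wnt2 at 31.0 and 10.2 CPM (-1.60). Has1, at 951 and 1698 CPM (0.84), the protein C receptor Procr, at 161 and 307 CPM (0.93), and the alarmin Il33, at 116 and 188 CPM (0.70), lay on the other side of 0. In the cells with Pi16 and at least 10 Pi16 and Dpp4 UMIs, 759 and 24 in number, Sema3c was at 877 CPM in TNF- cells and 507 CPM in TNF+ cells and Cd55 at 640 and 333 CPM. In these same cells C3 was at 1933 and 5874 CPM and Cthrc1 at 0.671 and 648 CPM. The part of cells near the edge of the rule in the differences between the libraries was not tested.

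How the inflammatory genes were spread over the TNF+ cells was examined with Cthrc1, Il1rl1, Cxcl5 and Hp, chosen after their values were seen. Il1rl1, the receptor of Il33, was at 1.81 CPM in TNF- cells and 211 CPM in TNF+ cells, of which 12 carried it. None of the 4 genes was found in 28 of the 55 TNF+ cells, and at least 2 of them in 20. Of the TNF- cells, 1299 of 1326 had none and 1 had 2. The 28 TNF+ cells with none had a median of 11090 UMIs and 5 Pi16 and Dpp4 UMIs, and the 4 cells with all of them a median of 31692 and 33.5. Depth thus moved with the number of these genes seen, and its part was not tested.

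**Figure D4:**
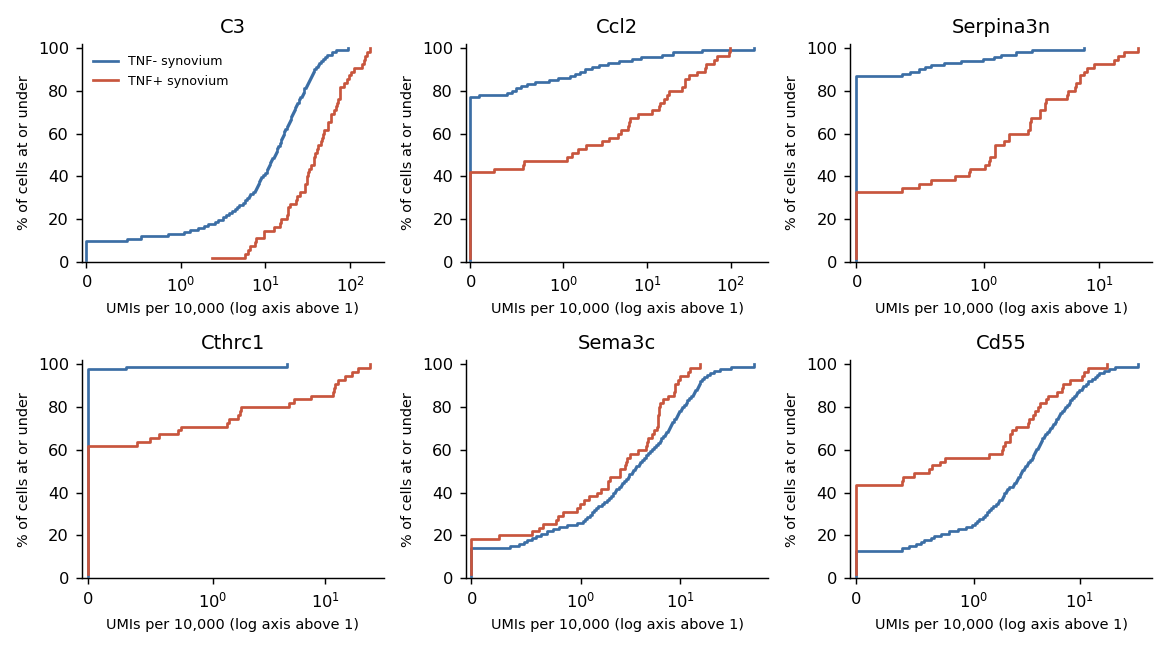
Cumulative percentage of cells (vertical axis) at or under a given number of UMIs per 10,000 (horizontal axis, logarithmic above 1) for single genes in the TNF- and TNF+ Pi16 Dpp4 cells. The C3 curve of the TNF+ cells lies to the right of that of the TNF- cells, with medians of 38.2 and 12.9, whereas for Cthrc1 the TNF+ curve starts high because 34 of the 55 cells held none.

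Genes found in at least 20 TNF+ cells with no cell over 25% of the UMIs were ranked as well, also after the values were seen. Highest after Cthrc1, Ecrg4 and Serpina3n was Lgals3, a galactoside-binding lectin, at 30.7 CPM in TNF- cells and 508 CPM in TNF+ cells (4.05). Hmox1, which degrades haem, followed with 1414 CPM in TNF+ cells (3.97) and was present in 50 of the 55 TNF+ cells. TNF+ leukocytes held more of both genes, at 67.8 Lgals3 UMIs per cell against 9.04 in the Pi16 Dpp4 cells and 53.1 Hmox1 UMIs against 25.1, and the part of their RNA in these ratios was not tested. Ecrg4, a secreted peptide precursor, was at 18.9 and 591 CPM (4.97), with a log2 ratio of 6.01 without the Tnmd cells. The growth factor Hbegf was at 38.1 and 381 CPM, but at 24.4 and 88.3 CPM without the Tnmd cells. After thinning its log2 ratio was -0.70, on 59 TNF- UMIs and 1 TNF+ UMI. At the low end stood Ebf2, the immediate-early gene Fos, at 2534 and 454 CPM (-2.48), and the laminin chain Lama2, at 846 and 196 CPM (-2.11). In the other fibroblasts the ratios were 3.94 for Ecrg4, 4.52 for Lgals3, 3.46 for Hmox1, -2.90 for Ebf2 and -2.33 for Lama2.

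Of 22 cytokine receptors, 2 were 2-fold higher and 1 lower, with a median of -0.03. The TNF receptor Tnfrsf1a was at 78.5 CPM in TNF- cells and 139 CPM in TNF+ cells (0.82) and Tnfrsf1b at 24.7 and 24.5 CPM. Il1r1, the signalling receptor of interleukin 1, was at 131 and 312 CPM (1.25), against a ratio of -0.37 in the other fibroblasts. Of 22 NF-kB feedback genes, 4 were 2-fold higher and 2 lower, and their median was 0.17, with -0.050 after thinning and 0.40 with scaling by the median of gene ratios. The same list had a median of 0.60 in the other fibroblasts, and the difference was not tested. Nfkbia, the inhibitor that NF-kB itself induces, was at 460 and 502 CPM, a log2 ratio of 0.13 (-0.01 to 0.26), and at 399 and 863 CPM (1.11) in the other fibroblasts. Tnfaip3, which ends NF-kB signalling, had 0.54 (-0.13 to 1.15) against 1.93. The mitochondrial superoxide dismutase Sod2 was at 77.0 and 297 CPM (1.95).

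Of 24 interferon-stimulated genes, 10 were 2-fold lower and 1 higher, where 19.6% of all genes were lower, and their median was -0.63. With the median of genes of like length subtracted, 6 were lower. In the other fibroblasts 7 were lower and 3 higher, with a median of -0.20. Isg15, a ubiquitin-like modifier, was at 47.0 CPM in TNF- cells and 18.4 CPM in TNF+ cells (-1.35), and Ifi27l2a at 387 and 82.8 CPM (-2.22). The interferon regulator Irf1 was at 295 and 110 CPM (-1.42). The class I molecule H2-D1 was the gene past 2-fold in the other direction, at 499 and 1041 CPM (1.06). Immediate-early and heat-shock genes, which tissue digestion is known to induce, had 6 of 20 genes 2-fold lower and none higher. Egr1 was at 2380 and 576 CPM (-2.05) and Jun at 1880 and 733 CPM (-1.36), while Jund was at 1638 CPM in both. Fos and Egr1 were lower in the other fibroblasts too, with ratios of -2.15 and -2.29.

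Hypoxia and glycolysis genes had 1 direction past 2-fold: 12 of 19 were 2-fold higher, none was 2-fold lower, and the median was 1.30. Hk2, which commits glucose to glycolysis, was at 446 CPM in TNF- cells and 1149 CPM in TNF+ cells (1.37), the lactate dehydrogenase Ldha at 144 and 371 CPM (1.37), and Hif1a, the hypoxia-induced factor, at 85.1 and 235 CPM (1.47). In the other fibroblasts these ratios were 1.14, 1.31 and 1.82. Of all 12250 genes tested, 6.59% were 2-fold higher and 19.6% lower. The counts of lower genes in the signalling, growth factor and adipogenic lists below lay near that lower share. Of 21 Wnt, BMP and TGF-beta genes, 8 were 2-fold higher and 4 lower: the Wnt inhibitor Wif1 was at 10.2 and 104 CPM (3.35), whereas Wnt5a was at 61.8 and 13.3 CPM (-2.22). Of 25 growth factor genes, 9 were higher and 4 lower, with Kitl, the stem cell factor, at 128 and 48.1 CPM (-1.41). Adipogenic genes had 3 of 13 higher and 3 lower. Of the 8 cell cycle genes that could be read, none was 2-fold higher and 1 was lower, with a median of -0.01. In the other fibroblasts 4 of the 8 were 2-fold higher and none lower, with a median of 0.91, and the difference was not tested.

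Low genes were tied to gene length. The 15 genes ranked lowest, led by Nrxn3, Focad and Ano3, had a median length of 150386 bases. It was 11977 for the 15 highest and 25959 for all genes tested. Nrxn3, a neuronal adhesion gene, had 746 UMIs in the TNF- and 1 in the TNF+ cells. The floor set a count of 0 to 3 UMIs, so genes with 0 TNF+ UMIs could rank above genes with 1. Of the genes tested, 507 had 0 TNF+ UMIs, and none of these was among the 15 ranked lowest. Without its only TNF+ UMI, the log2 ratio of Nrxn3 rose from -4.90 to -3.28. The median length of the 15 ranked lowest thus rests on a set that depended on the floor. In the Pi16 Dpp4 cells the median log2 ratio went from -0.02 for genes of up to 10 kb through -0.16, -0.28 and -0.55 to -0.73 for genes over 300 kb. The other fibroblasts went from -0.05 to -0.80, endothelial cells from 0.14 to -0.72 and leukocytes from -0.004 to -1.31. The gradient was thus present in the 4 cell groups examined, and its part in the ratios of single genes was not tested. The count of intronic reads makes long genes depend on unspliced RNA, whose share was not measured.

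**Figure D5:**
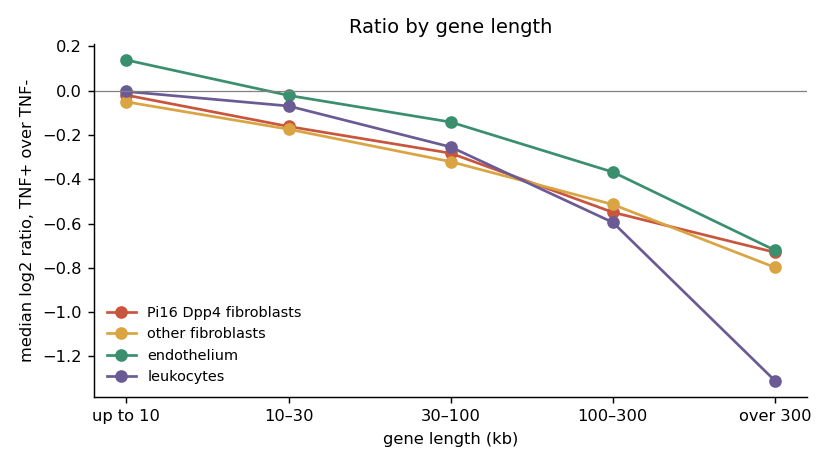
Median log2 ratio, TNF+ over TNF- (vertical axis), of genes in 5 classes of gene length in kb (horizontal axis), for Pi16 Dpp4 fibroblasts, the other fibroblasts, endothelium and leukocytes. All 4 lines fall with length, in the Pi16 Dpp4 fibroblasts from -0.02 to -0.73.

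Applied to the lung, the same rule took 38 TNF- and 11 TNF+ cells. The label genes were present in the TNF- lung cells, with Sema3c at 449 CPM and Cd248 at 248 CPM, against 612 and 454 CPM in the TNF- synovium. C3 was at 2302 CPM in the lung and 1696 CPM in the synovial cells, and Cfb at 308 and 72.6 CPM, 4.24-fold higher in the lung. Has1 was 20.6-fold higher in the synovium, at 951 against 46.2 CPM, and Cd55 5.94-fold higher, at 466 against 78.4 CPM. Genes of body position separated the tissues: Tbx4, a factor of lung and hindlimb mesenchyme, was at 140 CPM in the lung and 5.62 CPM in the synovial cells, and Foxf1, a factor of visceral mesenchyme, at 79.4 and 1.03 CPM. Hoxc10 and Shox2, limb genes, had 0 UMIs in the lung cells and were at 39.8 and 56.2 CPM in the synovial cells, at least 12.3-fold and 17.5-fold higher. In the TNF+ synovial cells Foxf1 was at 25.6 CPM in 10 cells, a log2 ratio of 4.64 over the TNF- synovial cells, and Hoxc10 at 23.5 CPM (-0.76).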

How the data were processed

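Single-cell suspensions of synovium and lung were pooled by genotype and captured with 10x Genomics 3′ chemistry. The authors deposited raw UMI counts per gene and cell, made with Cell Ranger 7.0.1 at default settings, which count intronic reads, on the 10x mm10 (GRCm38) reference with 32285 genes, for barcodes called as cells. No deposited file assigned cells to types. Where reference entries shared a symbol (3 symbols of the lists), the entry with more UMIs was used.

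Cells were chosen by the rule given above, and each gene's UMIs were added up over the chosen cells of a library and scaled to their total UMIs (CPM). Exact Poisson intervals were given to CPM, exact (Clopper-Pearson) binomial intervals to shares, a Newcombe interval to a difference of shares and conditional binomial intervals to ratios. A count of 0 was set to a floor of 3 UMIs over the group. Genes with 50 or more UMIs over both sets were compared, and those past 2-fold counted. With 1 library per group no test was run. Endothelial cells held Cdh5 and leukocytes Ptprc. Doublets were not removed from the values reported. Cells that scored highest in Scrublet were counted, and were left out in an alternative that kept 1248 TNF- and 55 TNF+ chosen cells.

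The cells and the gene lists were chosen with earlier results of these data known. Named were the 15 highest and 15 lowest ratios of TNF+ over TNF-, ranked with counts of 0 at the floor. The genes past 2-fold in both libraries against the other fibroblasts were also named. So were genes of the lists, and genes said above to be chosen after their values were seen. Alternatives were other minimum counts for the rule, the study's limits of 200 to 5000 genes per cell, thinning, and other scalings and gene filters. Further ones left out the cells with the highest doublet scores, single cells or Tnmd cells. The scripts were tested on simulated counts. Python 3.11.15, numpy 2.4.6, scipy 1.17.1, pandas 2.3.3, scanpy 1.11.5 and matplotlib 3.10.9 were used. Some genes of the lists are not reported here by name.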

Additional observations from a re-analysis of the deposited data

Results flagged for a closer look

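Only genes of the lists and genes named by rank, with at least 10 UMIs in the TNF+ Pi16 Dpp4 cells, were searched. The other genes tested were not. For 6 genes of this search the TNF+ to TNF- ratio, on the log2 scale, was past 2-fold in one direction in the Pi16 Dpp4 fibroblasts. In the other fibroblasts it was past 2-fold in the other direction. The difference between the ratios was not tested, since each group was 1 library.

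Aldh1a3, which makes retinoic acid, had a ratio of -1.47 in the Pi16 Dpp4 cells, from 48.1 CPM in the TNF- to 17.4 CPM in the TNF+ set, and 2.21 in the other fibroblasts, from 2.27 to 10.5 CPM. Limch1, an actin-binding protein, had -1.41, from 182 to 68.5 CPM, against 1.48, from 17.5 to 48.6 CPM. Col8a1, a short-chain collagen, had -1.39, from 91.4 to 34.8 CPM, against 1.18, from 42.8 to 96.8 CPM. In the TNF- synovium all 3 were higher in the Pi16 Dpp4 cells. In the TNF+ synovium Col8a1 was higher in the other fibroblasts. The TNF+ values of the Pi16 Dpp4 cells rest on 17, 67 and 34 UMIs.

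The other 3 rest on single cells. Pappa, a protease of insulin-like growth factor binding proteins, had a ratio of 2.55 against -1.18, with 82.8% of its TNF+ UMIs in 1 cell. Gm32916 had 7.13 against -1.05 with all 45 TNF+ UMIs in 1 cell, and S100g, a calcium-binding protein, had 5.09 against -1.64 with 97.8% in 1 cell.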

How the results depend on the processing

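No replicate could be left out, because each group was 1 library. No paired analysis was possible because the groups compared share only 1 replicate number and no test was run. Alternatives with 10 UMIs, without Tnmd cells, with a Pi16 UMI, by gene length and without the top cell were chosen after seeing the data. Of 107 recomputed values of the main results, 66 moved by less than their counting interval or within 1.5 times of the count, and none turned direction except the NF-kB list below; where values moved, the cause was not tested.

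The difference in the share of fibroblasts was -19.3 points with 1 Pi16 and 1 Dpp4 UMI, -14.0 after thinning and -15.7 with 10 UMIs. The difference in the share of synovial C3 UMIs (-42.1 points as reported) was -44.5 with 2 UMIs, -38.4 with 5, -35.7 with 1 of each gene, -39.4 with 200 to 5000 genes, -24.6 after thinning, -30.9 with 10 UMIs and -37.5 with a Pi16 UMI. The C3 log2 ratio was 1.80 with 1 of each gene, 1.66 with 200 to 5000 genes, 1.42 after thinning, 1.83 with median-of-ratios scaling, 1.72 without Tnmd cells, 1.75 with a Pi16 UMI and 1.53 without the top cell. For Cfb it was 3.03 with 1 of each gene, 2.5 with 200 to 5000 genes, 3.11 with median-of-ratios scaling, 2.56 with cells weighted equally, 3.25 with 10 UMIs, 3.06 without Tnmd cells, 3.02 with a Pi16 UMI and 2.73 without the top cell. The Sema3c log2 ratio over other fibroblasts was 2.98 with 2 UMIs, with 200 to 5000 genes and with equal weights, 3.00 with 1 of each gene, 3.01 after thinning and 3.16 with a Pi16 UMI. The NF-kB median was 0.32 with 2 UMIs, 0.026 with 1 of each gene, -0.050 after thinning, 0.40 with median-of-ratios scaling and 0.011 with 10 UMIs. Genes 2-fold higher numbered 501 after thinning, 457 with a minimum of 200 UMIs and 1984 with none, and genes 2-fold lower 651 after thinning and 1459 with a minimum of 200. Of single genes, Hbegf was at -0.70 after thinning, and S100g at -0.39, Slc7a2 at 2.71 and Cfap299 at 0.85 without the top cell.

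Depth limits the TNF+ set: of the genes compared, 507 had 0 UMIs there, and for 244 of them a count of 0 gives no direction.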
